A study of Mus musculus with 4 samples.

Results

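The suppressor of cytokine signalling (SOCS) family was followed in cultured CD4+ T cells with or without a conditional deletion of Bach2, a transcriptional repressor of the B-ZIP class. The family was taken as Cish and Socs1 to Socs7, and its members were found by matching the transcript accession of each array probe to a gene symbol. All 8 genes were on the array, with 10 probes between them, out of 18749 named genes and 41173 probes. SOCS proteins carry an SH2 domain, which binds phosphorylated tyrosines, and a SOCS box, which recruits an elongin and cullin ubiquitin ligase. Cytokine receptors activate JAK kinases, JAKs activate STAT factors, and STATs switch on Cish, Socs1, Socs2 and Socs3, whose products then damp the receptor or its JAK. In T cells this loop limits responses to IL-2, IL-4, IL-6 and interferons.

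The study compared Bach2 KO and WT cells before and after T cell receptor (TCR) re-stimulation, with 1 array for each of the 4 conditions. KO cells came from C57BL/6J mice with floxed Bach2 (flox/flox) and a CD4-Cre transgene, in which the Cd4 promoter drives the recombinase in T cells. WT cells are labelled only as Bach2 WT. The study describes its WT control mice as CD4-Cre for other experiments, and whether the WT cells on these arrays carried Cre is not given in the sources used here. The labels give the mice as female, and the methods give ages of 8 to 12 weeks and the use of both sexes for work in vitro. Naive spleen CD4+ T cells (CD44 low, CD62L high, CD25 negative) were activated for 2 days with 3 µg/ml anti-TCR-β and 1 µg/ml anti-CD28. They were then kept for 3 further days with IL-2, at 2.5 ng/ml by the labels and 10 ng/ml by the methods. The re-stimulated cells received immobilised anti-TCR-β for 4 h without added IL-2, and the unstimulated cells did not. No source says how many mice or cultures stood behind an array.

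With 1 array per condition no difference had a replicate check, and no p-value is given. Signals are background-subtracted brightness in arbitrary units. Comparisons are log2 differences after subtraction of each array's 75th percentile signal, which was 436 and 434 on the unstimulated WT and KO arrays and 313 and 353 on the re-stimulated ones. The error given with a difference is that modelled by the scanner software, 10 to 12.4% of a member's signal, or about ± 0.20 in a log2 difference. It does not include variation between cultures. Probes of the same gene, where a gene had several, differed by a median SD of 0.09 to 0.15 in a log2 difference (3852 genes). A fixed size of 2-fold, 1 on the log2 scale, was used to count changes.

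All 10 SOCS probes were well above background on all 4 arrays and none was saturated. Between 22056 and 22223 of the 41173 probes were well above background on an array. The Bach2 probe gave signals of 2932 (WT) and 2633 (KO) before and 3310 and 3080 after re-stimulation, log2 differences of -0.15 and -0.28 between genotypes, so it gave no clear check of the labels. Whether that probe lies inside the deleted part is not given in the sources used here. Ddx3y, Eif2s3y and Kdm5d, which are Y-linked, were well above background on both KO arrays and on neither WT array, although all the samples are labelled female. Xist, which female cells transcribe from their silenced X chromosome, passed the background flag on every array, with signals of 9524 (WT) and 4623 (KO) before and 5221 and 2585 after re-stimulation, log2 differences of -1.04 and -1.19 between genotypes. The Y-linked signal thus lay on the same arrays as the KO genotype, so an effect of the sex of the cells cannot be told apart from one of genotype in the comparisons below. All 11 measured T cell identity genes were well above background on every array. Of 11 mast cell and basophil markers, 8 were well above background on the KO arrays against 4 and 3 on the WT arrays. Their summed signals were 298 (WT) and 2781 (KO) before and 1112 and 3983 after re-stimulation. Il1rl1, the IL-33 receptor gene, gave 55.3 (WT) and 1438 (KO), then 629 and 2006. It had the largest signal of the list on every array but the unstimulated WT one. The study reported more lung CD4 T cells with that receptor in Bach2-deficient mice. On no array did Mcpt4, Tpsb2 or Ms4a2 pass the background flag. Mcpt8, Cpa3, Fcer1a and Gata2 passed it on both KO arrays and on neither WT array. Before re-stimulation they were at least 20.5-fold, 22.5-fold, 4.94-fold and 1.72-fold higher in KO, in that order. After it these lower bounds were 20.3-fold, 11.9-fold, 4.68-fold and 1.70-fold. Prss34 was 8.96-fold higher in KO before re-stimulation and at least 13.8-fold higher after it. Cd200r3 and Hdc were above background on every array. Myeloid markers summed to 295 (WT) and 830 (KO), then 194 and 450, with 4 or 5 of 12 above background. Lyz2, Lyz1, Itgam and S100a8 were above it on no array. S100a9 gave 4.63 (WT) and 150 (KO), then 5.65 and 114, with neither WT signal above background. Mpo gave 32.3 (WT) and 158 (KO), then 23.5 and 79.2. Spi1 was above background only on the re-stimulated WT array. B cell markers summed to 590 (WT) and 832 (KO) before and 178 and 457 after re-stimulation. Cd79a, Ms4a1 and Pax5 were above background on no array. Blnk gave 17.5 (WT) and 222 (KO), then 8.48 (not above background) and 210, and Cd79b gave 525 and 539, then 97.4 and 135. NK cell markers summed to 659 (WT) and 1333 (KO), then 1230 and 1318, with Ncr1 above background on no array. Eomes gave 283 (WT) and 860 (KO), then 1039 and 1096. Cd8a was above background only on the KO re-stimulated array, at a signal of 63.0. The part of these markers in the results was not tested. In cell mixtures, fewer cells of a type and less RNA per cell cannot be told apart.

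Short stretches of DNA at the starts of the STAT-induced members are shown first, because the family is known for induction by STAT factors. Promoter windows were RefSeq sequences on GRCm38.p6, from 250 bases before to 50 bases after a start, and were present for Cish, Socs1, Socs3 and Socs4 (4 of 8 members). Socs2, Socs5, Socs6 and Socs7 were not in that table. The windows of Cish, Socs1, Socs3 and Socs4 were searched on both strands for the STAT motif TTCNNNGAA. They were also searched for the same 3-base ends with a spacer of any 4 bases, and for the AP-1 motif TGANTCA, to which B-ZIP factors bind. The first motif was found in 8.30% of 32851 windows of this length, the second in 6.95% and the third in 7.81%. A stretch cannot match both STAT spacings from the same first base. The Cish window held TTCNNNGAA at 2 places, whose first bases are the first and the 12th base from the start. The Socs3 window held it at 1 place, beginning at position -154 from the start used. No match to any of the motifs was found in the Socs1 and Socs4 windows, which says only that these letters are not in those windows. Capitals mark the matches below.
Cish, chr9:107296654-107296683, plus strand: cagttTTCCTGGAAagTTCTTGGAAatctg
Socs3, chr11:117969501-117969530, minus strand: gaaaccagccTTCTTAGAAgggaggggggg
Socs1, chr16:10785537-10785786, minus strand, with no match: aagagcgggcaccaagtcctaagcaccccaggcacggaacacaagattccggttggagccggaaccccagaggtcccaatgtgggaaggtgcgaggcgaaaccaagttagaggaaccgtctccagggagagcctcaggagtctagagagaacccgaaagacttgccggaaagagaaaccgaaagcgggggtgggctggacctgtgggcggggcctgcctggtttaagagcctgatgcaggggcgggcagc

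Socs3 stood out among the members after re-stimulation. SOCS3 binds the IL-6 receptor subunit gp130 and blocks JAKs there, and its gene is known to be induced through STAT3. The Socs3 signal was 6139 in unstimulated WT cells, 7893 in unstimulated KO cells, 2650 in re-stimulated WT cells and 7593 in re-stimulated KO cells. The re-stimulated WT array was thus the low one, and the other 3 lay between 6139 and 7893. Before re-stimulation Socs3 differed by 0.37 ± 0.20 between KO and WT on the log2 scale. After it the KO level was 2.54-fold higher, a log2 difference of 1.34 ± 0.20. Over the 9 other ways of processing the values, this difference lay between 1.30 and 1.44. Among 12348 genes measured in this comparison, 5.17% were at least 2-fold higher in KO, and 3.17% were as far up as Socs3.

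The same values can be read as responses. In WT cells Socs3 was 1.66-fold lower after 4 h of TCR re-stimulation (log2 -0.73 ± 0.20), and in KO cells it was 1.18-fold higher (log2 0.24 ± 0.20), although with arrays scaled to their median the KO response was -0.02. Scaling to the median also took the WT fall past 2-fold (-1.03), and scaling to Cd3e gave -0.43. Socs3 was the only one of the 8 members whose responses had opposite signs and both exceeded the SD between probes, as did 3.4% of the 10810 genes above background on all 4 arrays. The KO response minus the WT response was 0.98 ± 0.29, that is 1.97-fold, and lay between 0.93 and 1.01 under the other processing. Of those genes, 2.03% had a response difference as large in that direction. Without replicate arrays the difference between the responses could not be tested.

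Socs1 moved the other way. SOCS1 inhibits JAK kinases directly and is known as the main brake on interferon-γ signalling, and it also limits IL-2 and IL-4 signals. Its signal was 41479 in unstimulated WT cells, 56615 in unstimulated KO cells, 21919 in re-stimulated WT cells and 19597 in re-stimulated KO cells. Both re-stimulated arrays were below both unstimulated ones. Socs1 fell by 0.44 ± 0.20 on the log2 scale in WT and by 1.23 ± 0.20 in KO, the latter a 2.35-fold difference. The fall in KO was -0.97, below 2-fold, when arrays were scaled to Cd3e, a TCR complex gene. KO was above WT by 0.46 before re-stimulation and below it by a log2 difference of -0.34 afterwards. Socs1 was the only member of 8 whose genotype differences had opposite signs and both exceeded the SD between probes, as did 12.4% of the 10810 genes. Cish also changed sign but lay just inside that SD. The Socs1 response in KO minus that in WT was -0.79 ± 0.29, and 4.52% of genes were as far in that direction.

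Socs2 gave the largest fall of the family in both genotypes. SOCS2 is best known as the brake on growth hormone signalling and is also induced by cytokines that act through STAT5. Its signal was 19851 in unstimulated WT cells, 15439 in unstimulated KO cells, 4689 in re-stimulated WT cells and 2797 in re-stimulated KO cells. Each re-stimulated array was far below both unstimulated arrays. The fall was 3.03-fold in WT (log2 -1.60 ± 0.20) and 4.48-fold in KO (log2 -2.16 ± 0.20). Among all genes 4.31% fell at least as far in WT and 1.31% in KO. Socs2 was lower in KO than in WT at both times, by a log2 difference of -0.36 ± 0.20 before re-stimulation and -0.92 ± 0.20, or 1.89-fold, after it. The second of these did not reach 2-fold, and 4.44% of genes were as far down. The response in KO minus that in WT was -0.56 ± 0.29, and 7.82% of genes were as far in that direction.

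Cish, whose product CIS binds cytokine receptors and is the classical target of STAT5 downstream of IL-2, changed least. Its signal was 32871 in unstimulated WT cells, 34785 in unstimulated KO cells, 30565 in re-stimulated WT cells and 32007 in re-stimulated KO cells. The 4 values lay within a narrow band. Genotype differences were 0.09 before and -0.11 after re-stimulation, both smaller than the modelled error of 0.20. The response was 0.38 in WT and 0.18 in KO on the scaled log2 values, while the unscaled signals were slightly lower after re-stimulation in both, and the KO response was -0.09 with arrays scaled to their median. A direction for the Cish response in KO was therefore not set by these arrays.

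The 4 remaining members had signals of 41.4 to 211, much closer to the lowest signals counted as well above background, 14.5 to 17.2. SOCS4 and SOCS5 are close relatives known to act on the epidermal growth factor receptor, and SOCS5 has also been linked to IL-4 receptor signalling. The Socs4 signal was 66.4 in unstimulated WT cells, 95.3 in unstimulated KO cells, 152 in re-stimulated WT cells and 182 in re-stimulated KO cells. The other Socs4 probe gave 60.2, 86.1, 123 and 145 in the same order. Both probes were higher on both re-stimulated arrays. Socs4 rose 3.19-fold in WT (log2 1.67 ± 0.22) and 2.36-fold in KO (log2 1.24 ± 0.21), and the other probe gave 1.51 and 1.05. With a different background correction, an offset of 50 added to low signals and quantile normalisation, the rises were 0.99 and 0.74. Scaling to the median gave 0.97 in KO. Before re-stimulation Socs4 was 1.44-fold higher in KO (log2 0.53 ± 0.22), and afterwards the genotypes differed by 0.09 ± 0.21.

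Socs5 had signals of 128 and 167 in unstimulated WT and KO cells and 143 and 199 in re-stimulated WT and KO cells. KO was above WT at both times, by 0.39 ± 0.21 and 0.30 ± 0.21, and the responses were 0.64 in WT and 0.55 in KO, so neither contrast reached 2-fold. Socs6, whose product has been linked to insulin receptor and KIT signalling, had signals of 162, 177, 189 and 211 in unstimulated WT, unstimulated KO, re-stimulated WT and re-stimulated KO cells. Its other probe gave 118, 135, 135 and 164. The genotypes differed by 0.13 and -0.01 on the log2 scale, within the modelled error of 0.21. The Socs6 response was 0.70 in WT and 0.55 in KO, and the other probe gave 0.67 and 0.59.

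Socs7, linked to insulin and prolactin signalling, had signals of 44.9 in unstimulated WT cells, 52.2 in unstimulated KO cells, 41.4 in re-stimulated WT cells and 86.2 in re-stimulated KO cells. The re-stimulated KO array was the high one. The genotype difference was 0.22 ± 0.25 before and 0.88 ± 0.24, or 1.85-fold, after re-stimulation. The response was 0.36 ± 0.25 in WT and 1.02 ± 0.23, or 2.03-fold, in KO. This call was at the edge of the 2-fold size: scaling to the median gave 0.76 and the other background correction gave 0.48. The response in KO minus that in WT was 0.66 ± 0.34, and 4.95% of genes were as far in that direction.

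**Figure D1:**
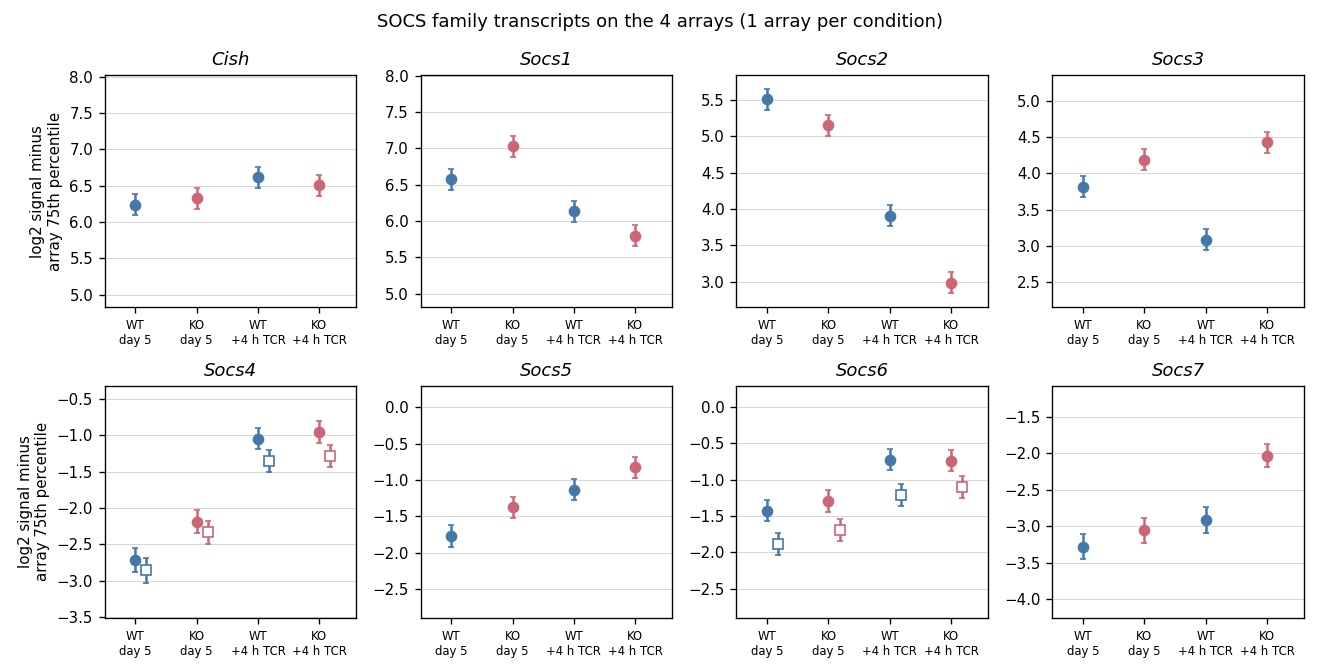
Level of each SOCS family member on each array, as log2 signal minus the 75th percentile of the array (y axis, same span of 3.2 log2 units in every panel). Blue is WT and red is KO, filled circles are the probe reported, open squares the other probe of Socs4 and Socs6, and bars the scanner's modelled error; Socs3 is low only on the re-stimulated WT array (3.08, against 3.82, 4.18 and 4.43), and Socs2 is low on both re-stimulated arrays.

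Counted over the family, no member of 8 was 2-fold higher or lower in KO before re-stimulation, where 5.26% of genes were higher and 2.82% lower. After re-stimulation 1 member was 2-fold higher in KO (Socs3) and none lower, against 5.17% and 3.85% of genes. In WT cells 1 member rose (Socs4) and 1 fell (Socs2), against 13.2% and 13.5% of genes. In KO cells 2 members rose (Socs4 and Socs7) and 2 fell (Socs2 and Socs1), against 12.4% and 13% of genes. The median over the members was 0.30 before and 0.04 after re-stimulation for KO minus WT, beside medians of 0.00 and 0.02 over all genes. For the response it was 0.37 in WT and 0.40 in KO, beside -0.01 and 0.00. The 2 responses share no array, but each shares an array with each genotype difference, so the 4 comparisons are not separate measurements.

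**Figure D2:**
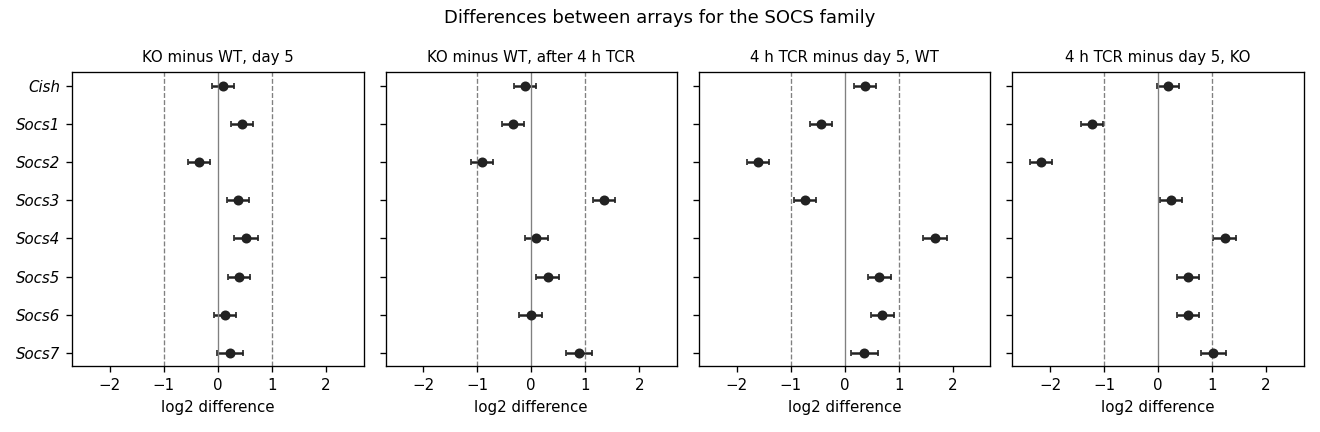
Log2 differences of the 8 members in the 4 comparisons (circles), with the modelled error as bars and dashed lines at 2-fold. Socs3 is past 2-fold between genotypes after re-stimulation (1.34), and Socs2 is the lowest in both responses (-1.60 and -2.16).

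**Figure D3:**
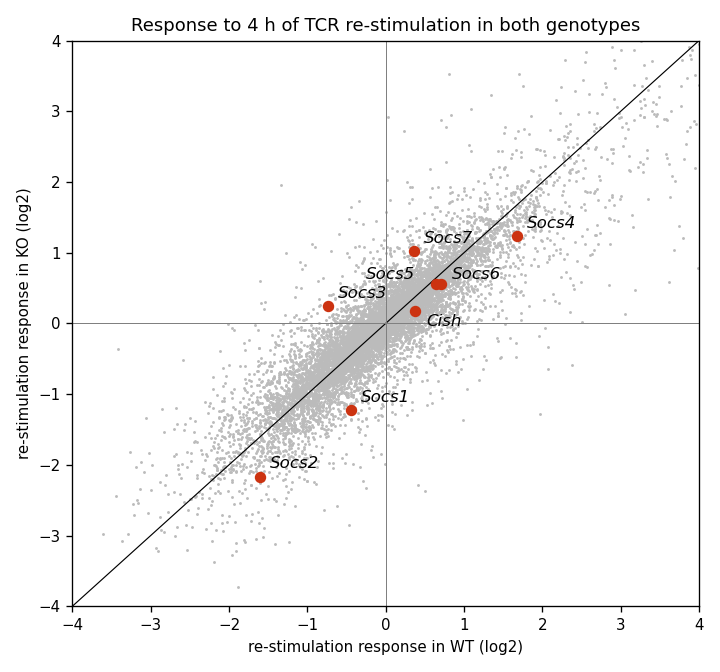
Response to re-stimulation in WT (x axis) and in KO (y axis), as log2 differences, for the 10810 genes above background on all 4 arrays (grey; 100 genes beyond 4 on either axis are not drawn) and the 8 members (red). The line marks equal responses; Socs3 (-0.73 and 0.24, the latter -0.02 with median scaling) and Socs7 (0.36 and 1.02) lie above it, and Socs1 (-0.44 and -1.23) and Socs2 below it.

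The choice of scaling moved the responses of all genes together. Scaling to the array median moved the median response of all genes to -0.30 in WT and -0.26 in KO, and scaling to Cd3e moved it to 0.27 and 0.25. Of the genes past 2-fold, 49.3% were higher in the WT response and 48.9% in the KO response; these shares were 29.1% and 30.8% with median scaling and 71.5% and 67.7% with Cd3e scaling. With Cd3e scaling the share higher in KO before re-stimulation was 74.2% in place of 65.1%. Relative to the median of all genes, each member kept its place under these scalings, because they add the same amount to every gene.

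**Figure D4:**
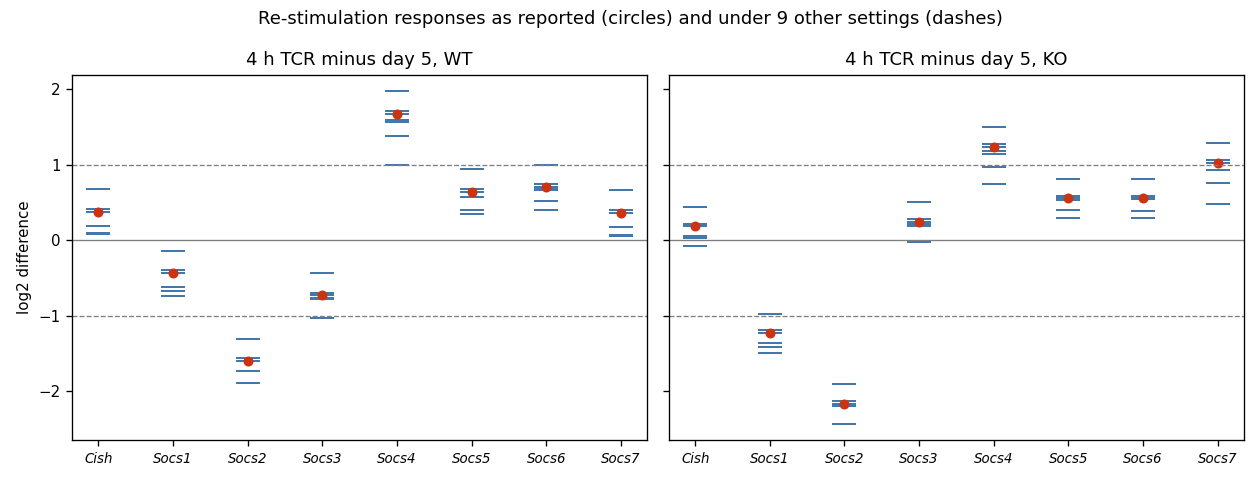
Log2 response to re-stimulation of each member in WT (left) and KO (right) as reported (red circles) and under 9 other settings of scaling, background correction, probe choice and filtering (blue dashes), with dashed lines at 2-fold. Socs2 stays below -1 in both genotypes, while Cish and Socs3 in KO cross 0 with median scaling (-0.09 and -0.02).

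The genes nearest to the members in profile over the 4 arrays were found by Euclidean distance among 10802 genes, for the members whose range was at least 1 on the log2 scale. Nearest to Socs3 were Kremen2 (distance 0.11), Gpc1 (0.14) and Lrp8 (0.16). Kremen2 signals were 560 and 778 in unstimulated WT and KO cells and 243 and 673 in re-stimulated WT and KO cells, again with the re-stimulated WT array low. Nearest to Socs1 were Pip5k1b (0.08), Zfp710 (0.10) and Fam102a (0.11), and nearest to Socs2 were Nicn1 (0.08), Cntrob (0.11) and Cnst (0.12). For Socs4 they were Prmt6 (0.08), Zc3h12a (0.10) and Plagl2 (0.10). For Socs7 they were Sbno2 (0.07), Qsox2 (0.10) and Rnf11 (0.10). With 4 arrays many genes lie close to any profile, and the likeness is a description only.

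Several ligands whose receptors SOCS proteins restrain differed more between genotypes than any member did. Of the common gamma chain cytokines 1 of 2 measured was 2-fold higher in KO before re-stimulation and 3 of 4 after it, led by Il21 (log2 4.15) and Il4 (3.59). Of other cytokines that signal through JAKs, 4 of 8 and then 7 of 11 were higher in KO, and none was lower. Il5, Il6 and Il10 before re-stimulation, and Ifnb1 and Il9 after it, were above background only in KO. These genes could not be counted as lower in KO. Before re-stimulation Il2 was above background only in WT, so it could not be counted as higher in KO. Over all genes, 5.26% were 2-fold higher and 2.82% lower in KO before re-stimulation, and 5.17% and 3.85% after it. Il6, whose receptor subunit SOCS3 binds, had signals of 3.35 and 23.0 in unstimulated WT and KO cells. After re-stimulation its signals were 85.4 (WT) and 7938 (KO), a log2 difference of 6.36. The 3.35 was not well above background, so before re-stimulation the KO excess had only a lower bound, 1.53-fold. Il10, which signals through STAT3, differed by 5.85 and Il5 by 6.86 after re-stimulation, and before it they were at least 25.1-fold and 21.8-fold higher in KO. Il2, the cytokine upstream of STAT5, rose from a signal of 17.5 to 37530 in WT and differed by -0.33 between genotypes after re-stimulation. In the responses 3 of 3 and 4 of 4 gamma chain cytokines rose in WT and KO, and of the other cytokines 6 of 10 rose and 1 fell (Osm) in WT and 9 of 11 rose in KO. Over all genes, 13.2% rose and 13.5% fell 2-fold in WT, and 12.4% and 13% in KO.

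Of the kinases and factors between receptor and SOCS genes, few differed between genotypes. No JAK kinase of 4 reached 2-fold in either genotype comparison, and Jak2 rose by 3.49 in WT and 3.36 in KO. Among the STAT factors, Stat4 was lower in KO after re-stimulation (-1.46). Stat5a rose by 3.17 in WT and 3.37 in KO. Of 23 receptor chains, 3 of 20 measured were higher and 1 lower in KO before re-stimulation, and 2 higher and 4 lower of 21 after it. The shares over all genes were 5.26% and 2.82%, then 5.17% and 3.85%. Il7r was higher by 3.08 and 1.88, which was not the largest rise of the list in either comparison. Il6ra was lower by a log2 difference of -2.35 before re-stimulation, and Ifngr1 lower by -2.19 after it. In the responses 3 receptor chains rose and 3 fell of 19 in WT, and 2 rose and 4 fell of 21 in KO, with Il15ra up in both (2.04 and 1.99). Over all genes, 13.2% rose and 13.5% fell in WT, and 12.4% and 13% in KO. These response counts are not read as a trait of the receptor chains.

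Other inhibitors of the pathway were counted beside the SOCS genes. The shares over all genes were 5.26% higher and 2.82% lower in KO before re-stimulation, and 5.17% and 3.85% after it. For the responses they were 13.2% up and 13.5% down in WT, and 12.4% and 13% in KO. The counts below are not read as traits of these short lists. Of 11 other JAK-STAT inhibitors, Ptpn6, which encodes the phosphatase SHP-1, was the only one past 2-fold before re-stimulation (-1.15) and none was after it. In both responses 2 rose, Usp18 (2.25 and 1.82) and Sh2b3 (1.07 and 1.00), and 2 fell, Ptpn6 (-2.11 and -1.64) and Pias3 (-1.68 and -1.70). None of 8 genes for the ubiquitin ligase that the SOCS box recruits was past 2-fold in any of the 4 comparisons. Of the other genes with a SOCS box, 2 of 13 were higher in KO before and 2 of 14 after re-stimulation, with Asb2 at 4.59 and 3.67. Of these, 3 of 14 rose and 2 fell in WT and 2 of 13 rose in KO, led by Spsb1 (1.44 in KO) and Wsb2 (1.33 and 1.11). Of T cell feedback inhibitors outside the family, 3 of 18 and 2 of 19 were higher in KO, 1 was lower after re-stimulation (Sla2, -1.44), and 10 of 19 rose and 3 fell in WT and 9 of 20 rose and 4 fell in KO. Tnfaip3 rose most (4.46 and 3.76), Sla2 (-1.37 and -2.12) and Csk (-1.38 and -1.59) fell in both, and Dok2 fell by 1.58 in WT on the log2 scale.

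**Figure D5:**
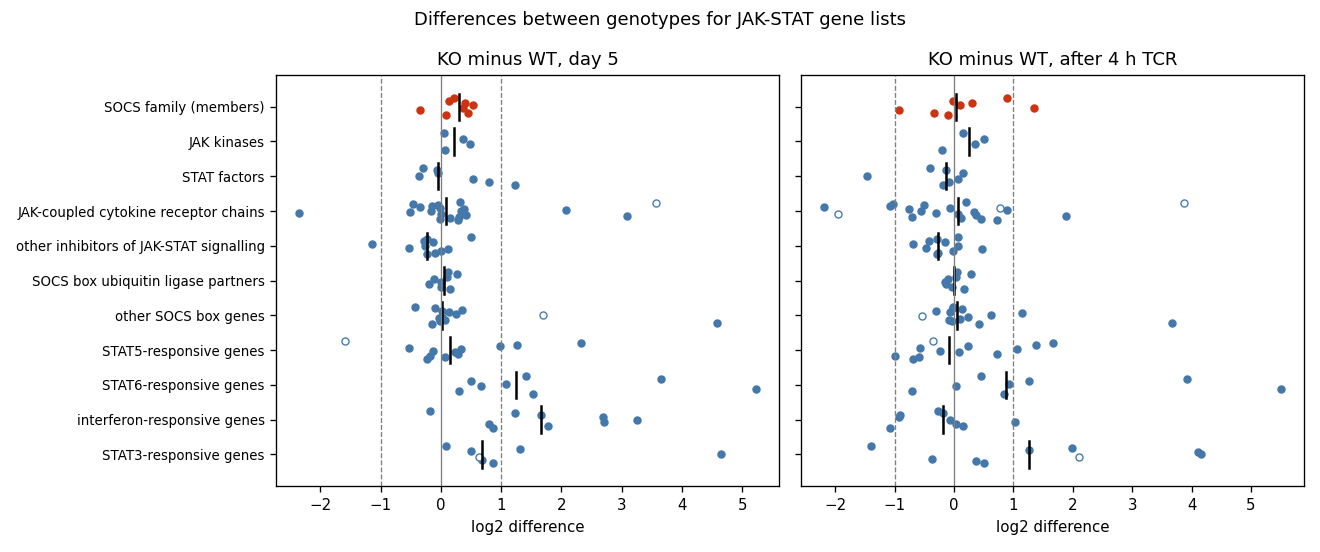
Log2 difference between KO and WT before (left) and after (right) re-stimulation for the 8 SOCS family members (red) and for genes of 10 related lists (blue), with 1 point per measured gene, open points for lower bounds, a black bar at the median of each list and dashed lines at 2-fold. Members span -0.36 to 0.53 on the left and -0.92 to 1.34 on the right, while single genes of other lists reach beyond 4.

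Genes known to respond to the STATs that induce the members were counted in the same way. The shares over all genes were 5.26% higher and 2.82% lower in KO before re-stimulation, and 5.17% and 3.85% after it. For the responses they were 13.2% up and 13.5% down in WT, and 12.4% and 13% in KO. Of STAT3-responsive genes, 2 of 7 were higher in KO before re-stimulation and 5 of 9 after it, among them Maf (4.65 and 4.10), and Fos was lower after it (-1.39). Of STAT6-responsive genes 5 of 8 and 3 of 8 were higher, with Il24 at 5.23 and 5.50. Of STAT5-responsive genes 2 of 12 and 3 of 12 were higher, with Prf1 at 2.32 and 1.66, and Foxp3 was at least 3.01-fold lower before re-stimulation. Of interferon-responsive genes 6 of 9 were higher in KO before re-stimulation, with Ifit1 at 3.26, and after it 1 was higher (Isg15, 1.03) and 1 lower (Irf1, -1.08). Interferon-responsive genes rose in 8 of 9 cases in WT and 5 of 9 in KO, STAT3-responsive genes in 6 of 8 and 7 of 10, and STAT6-responsive genes in 3 of 8 in both, with 1 fall in KO (Il4ra, -1.20). STAT5-responsive genes rose in 3 of 12 and fell in 3 in WT, and rose in 3 of 11 and fell in 2 in KO, with Ccnd3 at -2.52 and -2.63. Some of these genes, Fos and Osm for example, also respond to the TCR itself, and whether any of the lists bears on the SOCS values was not tested.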

How the data were processed

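RNA was measured on 4 one-colour (Cy3) Agilent whole mouse genome arrays, on 1 slide and in 1 scan. The deposited scanner files, made by the authors with Agilent Feature Extraction 10.7, hold processed intensity values per spot, background-subtracted within each array. A deposited table of log2 values differed by under 0.01 from the log2 processed signal minus the array's 75th percentile for at least 41001 of 41173 probes. Spots marked as outliers (107 to 120 of 43379 per array) and control spots were left out, and spots of a probe were averaged. Probes were named by transcript accession through RefSeq (27479 of 41173); of several probes the one with the highest mean signal was read. A gene was measured where at least 1 array of a pair was well above background; a dim array was set to its lowest signal well above background, or to the probe's own signal where that was higher, which gives a bound.

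Members and the 21 other lists were chosen with earlier results of these data known. Genes outside the family were named by size: per list and comparison, at most 2 rises and 2 falls past 2-fold, plus 3 nearest profiles per member; 1 gene that this rule named is not reported here. Il2 and Osm values beyond this, and the background genes of the array checks, were chosen after their values were seen. Samples were grouped by the labels. Scaling, background correction, source table, probe choice, filter and fold size were varied. No test was run, with 1 array per condition; precision is limited by how few arrays there were. Python 3.11.15, R 4.3.3 and limma 3.58.1 were used. The code for the differences was run on simulated arrays with planted changes. That run checked the code only and says nothing of how far the reported differences would repeat.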

Additional observations from a re-analysis of the deposited data

Results flagged for a closer look

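Socs1 had opposite genotype differences at the 2 times: KO minus WT was 0.46 before and -0.34 after re-stimulation on the log2 scale. Socs3 had opposite responses in the genotypes, -0.73 in WT and 0.24 in KO, the latter -0.02 with arrays scaled to their median. Each side rests on a pair of arrays, and the differences were not tested.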

How the results depend on the processing

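Over 9 other settings, 360 member values were recomputed. Of these, 298 moved by no more than the median SD between probes of a gene (0.09 to 0.15, by comparison). Another 60 moved further and 2 changed sign from a value beyond that SD. The stricter filter and the lack of a filter could not move a member, as all were above background on every array. Averaging over probes could move only Socs4 and Socs6, and the authors' table held nearly the same values. The 298 thus include values that were fixed in advance. The sign changed with median scaling for the KO response of Cish (-0.085, reported as 0.18) and of Socs3 (-0.021, reported as 0.24). Median scaling gave KO responses of -1.50 for Socs1, -2.43 for Socs2, 0.97 for Socs4 and 0.76 for Socs7, and WT responses of -1.90 for Socs2 and 1.37 for Socs4. Scaling to Cd3e gave KO responses of -0.97 for Socs1, -1.91 for Socs2, 1.49 for Socs4 and 1.28 for Socs7, and WT responses of -1.30 for Socs2 and 1.97 for Socs4. Both scalings add a constant to all genes. Quantile normalisation gave -1.41 for Socs1 in KO. Normexp with an offset of 50 gave 0.74 and 0.99 for Socs4 in KO and WT and 0.48 for Socs7 in KO; the cause was not tested.

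Of 88 counts of members past a fold size, 13 moved. Counts under the filter settings could not move either. Members higher in the KO response numbered 0 with median scaling, normexp or a 3-fold size and 1 with quantile normalisation, in place of 2. In the WT response the higher count was 0 with normexp and 3 at 1.5-fold, in place of 1. Lower counts in the KO response were 1 with Cd3e scaling or a 3-fold size, in place of 2, and in the WT response 2 with median scaling or at 1.5-fold, in place of 1, Socs3 (-1.03 with median scaling) being the member added. Between genotypes after re-stimulation, 0 members were higher at 3-fold and 2 at 1.5-fold, in place of 1, and 1 was lower at 1.5-fold, in place of 0.

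No paired analysis was possible because each condition had 1 array and so no replicates to pair; a fit that takes the states as replicates of the genotypes was not run. With 1 array per condition, leaving out a replicate was not done. Signals of Socs4 to Socs7 lay nearest to background.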
